A study of Mus musculus with 16 samples.

Results

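The carboxylesterases are described here across 16 liver arrays, from 9 named genes of the family (Ces1d, Ces1e, Ces1f, Ces1g, Ces2a, Ces2c, Ces2e, Ces3a and Ces3b) chosen by name and matched by NCBI gene identifier. Of these, 8 had a probe among the 19057 genes with a probe on the Illumina mouse Ref-6 v2 array, and 7 passed the detection filter among the 9906 genes tested. Ces2c had no probe listed, and the Ces2e probe was detected on 0 of 16 arrays. The groups were 3 male and 5 female KO livers, with the genotype label hs-RXRa-Dex4-/- (a deletion in Rxra restricted to hepatocytes), and 3 male and 5 female wild-type (WT) livers, all from mice aged 2 months with no treatment named. The promoter that restricts the deletion to hepatocytes is not given in the sources used here, and by its design other liver cells keep Rxra. RNA was measured as biotin-labelled cRNA on 1 array per sample, and values are normalized probe intensities on a linear scale.

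Carboxylesterases are serine hydrolases that cleave ester, thioester and amide bonds, and most liver members reside in the endoplasmic reticulum. Members of the Ces1 group handle neutral lipids and drugs, and some mobilize stored triglyceride for assembly of very low density lipoprotein (VLDL). Ces2 members cleave many prodrugs and acylglycerols, and Ces3 members are related enzymes of mouse liver. In mouse liver several of these genes respond to nuclear receptors such as CAR, PXR and PPARα, which bind DNA together with RXRα.

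All family members lie on chromosome 8, where Ces1d, Ces1e, Ces1f and Ces1g are consecutive annotated genes and Ces3a and Ces3b are neighbours (RefSeq, GRCm38.p6). RefSeq promoters of the same build matched 6 of the 9 genes by symbol. None was found for Ces1d, Ces1f and Ces3a, so Ces1e and Ces1g could not be set beside Ces1d and Ces1f. The 250 bases before the start of Ces1e (chr8:93229620-93229869, minus strand) and of Ces1g (chr8:93337210-93337459, minus strand) are shown because these genes had lower levels in KO livers, with capitals marking every run of at least 10 bases present in both.
Ces1e: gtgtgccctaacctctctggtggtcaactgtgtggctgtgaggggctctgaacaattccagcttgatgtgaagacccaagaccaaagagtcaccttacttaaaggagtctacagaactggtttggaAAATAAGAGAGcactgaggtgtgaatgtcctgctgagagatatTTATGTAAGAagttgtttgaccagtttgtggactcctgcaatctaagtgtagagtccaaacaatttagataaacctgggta
Ces1g: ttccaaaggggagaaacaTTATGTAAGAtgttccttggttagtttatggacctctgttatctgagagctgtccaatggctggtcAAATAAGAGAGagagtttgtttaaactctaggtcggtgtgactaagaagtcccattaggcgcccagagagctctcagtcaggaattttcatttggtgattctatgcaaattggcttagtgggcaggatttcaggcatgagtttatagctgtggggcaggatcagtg
The first run, AAATAAGAGAG, began 124 bases before the Ces1e start and 166 bases before the Ces1g start. The second, TTATGTAAGA, began 81 and 232 bases before these starts. On either strand the first occurred in 0.0244% and the second in 0.067% of 32851 promoters of this length, and the second was also present before Ces1a. The element AGGTCA bound by receptors that pair with RXRα (or its reverse complement TGACCT) occurred in 14% of the 32851 promoters, and among the 6 members with a promoter it was found before Ces2a only. The runs were picked because both of these related genes hold them, after the expression values were seen. Their shares among promoters therefore do not measure how unusual the sharing is, and a match describes letters in this window only.

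Each array had 33.3 to 33.4% of its probes detected, with an intensity above about 21. Arrays correlated with the rest of their group at a mean r of 0.965 or more, except female WT 4 (0.952) and female WT 2 (0.961). Xist was detected on all 10 female arrays and none of the 6 male arrays, and the Y-linked genes Eif2s3y, Kdm5d and Uty were higher in males of both genotypes (adjusted p at most 0.00240, limma). The Rxra probe averaged 85.3 ± 23.6 in male KO and 63.9 ± 15.4 in male WT livers (SD, n = 3 each), and 80.0 ± 17.2 in female KO and 69.8 ± 20.8 in female WT livers (SD, n = 5 each). Its position relative to the deleted part is not given in the sources used here, so it does not check the genotype labels. All 8 hepatocyte markers were tested, and their summed intensity was 116315 to 129711 in male KO, 106459 to 127475 in male WT, 121904 to 126649 in female KO and 110174 to 127876 in female WT livers. Most of this sum comes from the brightest probes, among them Ahsg, Apoa1 and Ttr, so it says little about the dimmer markers.

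Over all arrays Ces1d lay between 7740 and 26799, Ces1f between 8108 and 12294, Ces3a between 3495 and 13461, Ces3b between 4813 and 14798, Ces1e between 469 and 3218 and Ces1g between 94.6 and 965, while Ces2a was near the detection limit. Probes differ in their response, so levels are compared between groups and not between genes. Signal from a closely related paralog at the same probe cannot be told apart here.

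**Figure D1:**
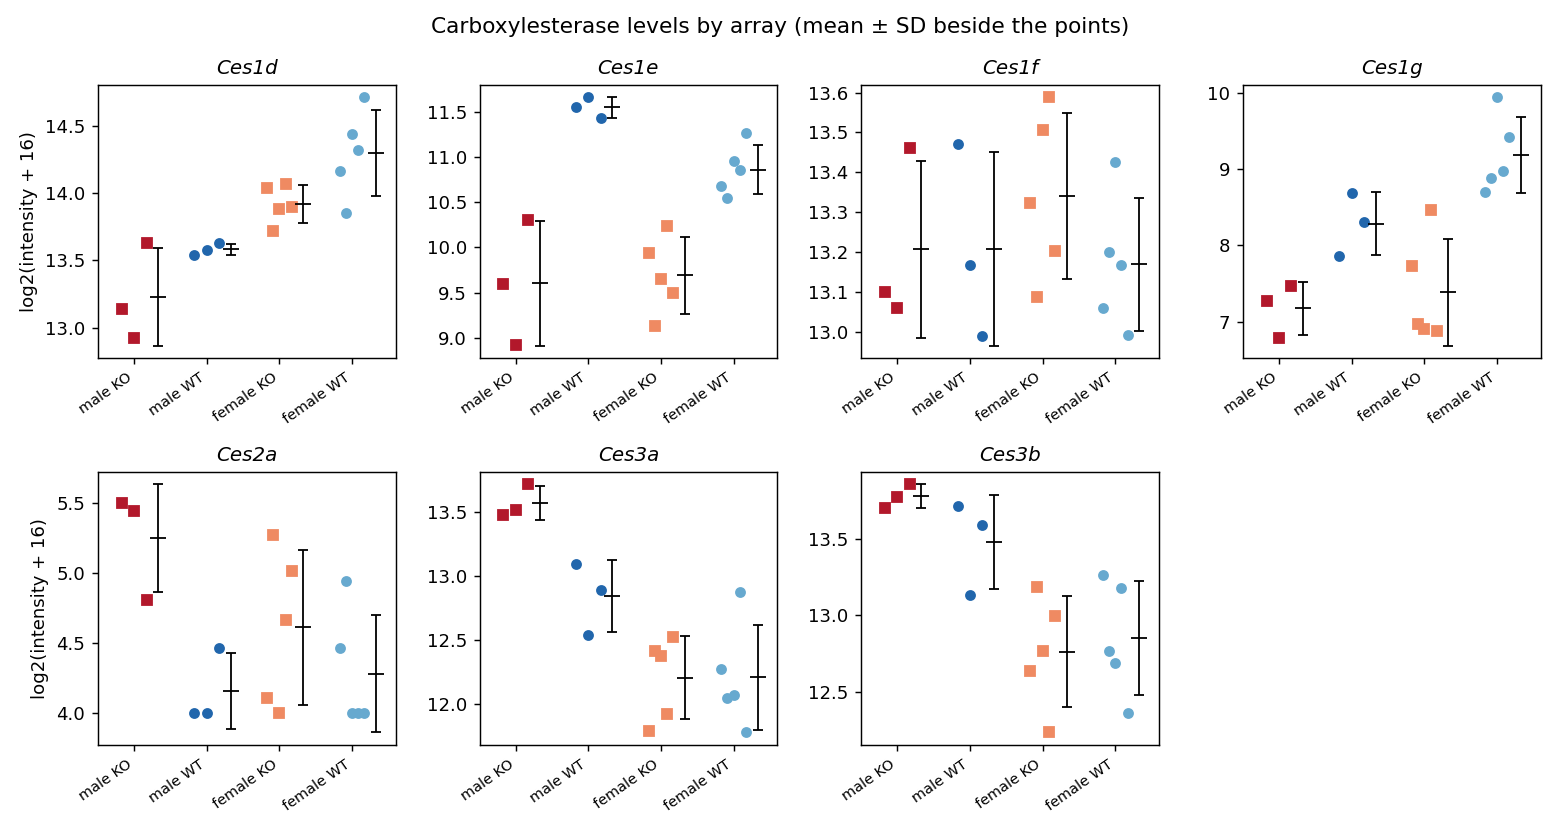
Level of each tested carboxylesterase, log2(intensity + 16), on every array of male KO, male WT, female KO and female WT livers (points), with the group mean and SD beside them as bars. Ces1e and Ces1g points of KO livers lie below those of WT livers of the same sex, and Ces3a points of male KO livers lie above those of all other groups.

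The Rxra deletion was accompanied by lower Ces1e in livers of both sexes. Ces1e encodes egasyn, the esterase that holds a share of β-glucuronidase in the endoplasmic reticulum of mouse liver. Its intensity was 757, 469 and 1246 in male KO livers, against 2982, 3218 and 2755 in male WT livers. Every male KO value lay below every male WT value. In females it was 968, 544, 789, 1196 and 706 in KO livers, against 1628, 1483, 1967, 1839 and 2441 in WT livers. These groups did not overlap either. Ces1e fell by 1.94 ± 0.31 on the log2 scale in male KO livers (SE, 3.84-fold lower, adjusted p = 0.00305, limma) and fell by 1.17 ± 0.24 in female KO livers (2.25-fold lower, adjusted p = 0.0158, limma).

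In the order of group means Ces1e was highest in male WT (2985 ± 231, SD, n = 3), then female WT (1872 ± 369, n = 5), female KO (840 ± 251, n = 5) and male KO livers (824 ± 393, n = 3). Male and female KO livers overlapped and differed by -0.09 on the log2 scale (95% interval -0.68 to 0.50). Male WT values all exceeded female WT values, but the difference of 0.69 did not pass (adjusted p = 0.209, limma). In bulk liver RNA, fewer cells of a type and less RNA per cell cannot be told apart.

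Ces1g, an esterase whose loss in mice raises liver lipid, was also lower in female KO livers. In females its intensity was 196, 109, 104, 336 and 101 in KO livers, against 400, 457, 965, 488 and 671 in WT livers. The groups did not overlap, with female KO 9 nearest to WT. Ces1g fell by 1.80 ± 0.31 on the log2 scale in female KO livers (SE, 3.48-fold lower, adjusted p = 0.00407, limma). In males it was 139, 94.6 and 161 in KO livers, against 217, 396 and 300.3 in WT livers. These groups did not overlap, but the difference of -1.11 ± 0.40 did not pass (adjusted p = 0.203, limma).

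Ces1g was highest in female WT livers (596 ± 230, SD, n = 5), followed by male WT (304 ± 89.6, n = 3), female KO (169 ± 101, n = 5) and male KO livers (132 ± 33.8, n = 3). Male minus female was -0.90 in WT livers (adjusted p = 0.199, limma), with no overlap of the groups, and -0.21 in KO livers, where the groups overlapped (95% interval -0.97 to 0.55).

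Of the 7 tested carboxylesterases, 1 (Ces1e) was called lower in male KO livers, where 0.626% of all genes tested were, and 2 (Ces1e and Ces1g) in female KO livers, where 1.08% of all genes tested were. Over the 7 members the KO minus WT difference had a median of -0.002 (males) and -0.09 (females), beside 0.02 and 0.004 over all genes tested. Every alternative fit run kept these calls for Ces1e in both sexes and for Ces1g in females. Of 8 hepatocyte markers 0 were called between KO and WT by limma in either sex (0 in males and 2 in females without adjustment). In males 8 lay above 0 (0.03 to 0.65), and in females 6 lay below 0 and 2 above (-0.70 to 0.23). The albumin gene Alb read 584 to 962 in female KO against 1065 to 1668 in female WT livers, without overlap. In males the summed intensity of 4 erythroid markers, 0 of which passed by limma (0 without adjustment), was 49783 to 67190 in KO against 69355 to 86165 in WT livers, and that of 4 cholangiocyte markers with a probe was 223 to 360 in KO against 94.6 to 180 in WT livers, with Krt19 and Epcam on no array. The 1 tested cholangiocyte gene, Sox9, differed by 0.74 in both sexes (adjusted p = 0.272 in males and 0.138 in females, limma), and its list summed to 160 to 309 in female KO against 98.4 to 220 in female WT livers. The summed intensity of 5 stellate cell markers was 7621 to 8811 in male KO against 6860 to 7409 in male WT livers, with 0 of 4 tested genes called by limma (1 without adjustment, Lrat, at -0.80). All 5 tested Kupffer cell markers lay above 0 in males (0.14 to 0.48) and below 0 in females (-0.30 to -0.02), with 0 called by limma (0 without adjustment). Of 4 exocrine pancreas genes with a probe, Cpa1, Cel and Prss2 were detected on no array, while the amylase probe Amy2a5 was higher by 0.73 in male KO and by 0.63 in female KO livers (adjusted p = 0.0415 and 0.0176, limma). Their part in the results was not tested.

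**Figure D2:**
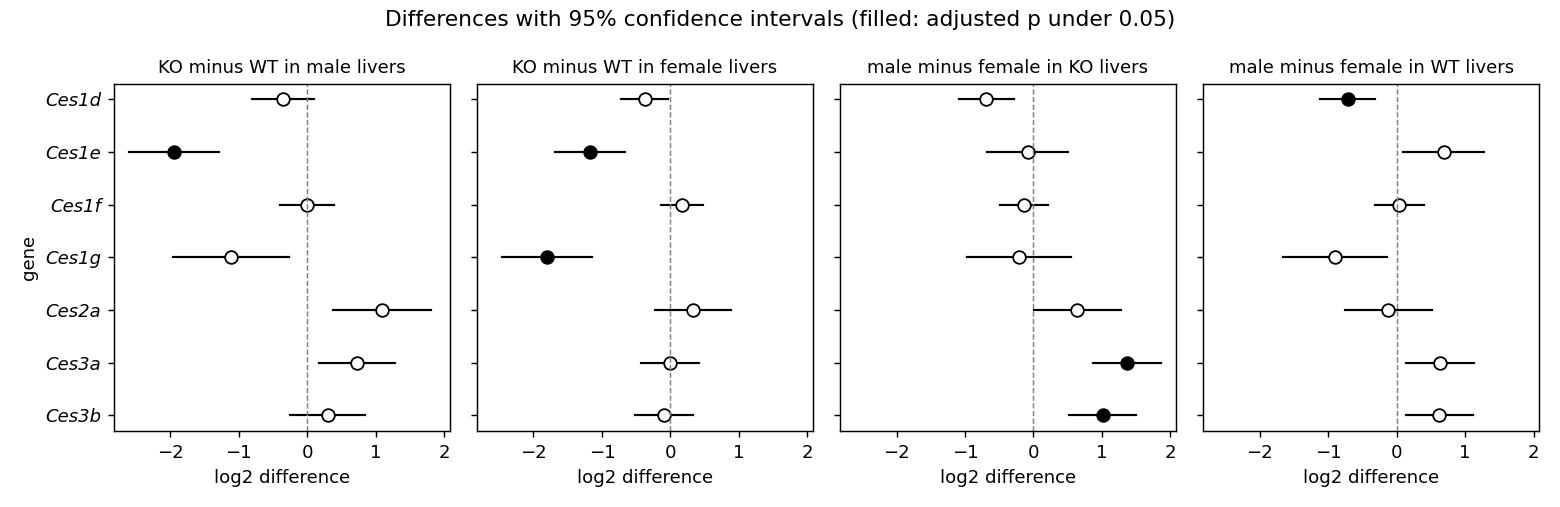
Log2 difference of each tested carboxylesterase in the 4 comparisons, with points for the estimate, lines for the 95% confidence interval from limma, and filled points where the adjusted p was under 0.05. Filled points lie below 0 for Ces1e (KO minus WT, both sexes), Ces1g (KO minus WT, females) and Ces1d (male minus female, WT). They lie above 0 for Ces3a and Ces3b (male minus female, KO). Some unfilled points also have intervals that leave out 0, among them Ces1g in males and Ces3a and Ces3b in WT livers.

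The other Ces1 members of the list were abundant and showed no called difference between KO and WT. Ces1d is the triacylglycerol hydrolase that mobilizes stored triglyceride for VLDL. Its intensity was 9005, 7740 and 12647 in male KO, 11907, 12179 and 12647 in male WT, 16774, 13461, 15116, 17182 and 15227 in female KO and 18330, 14737, 22234, 20439 and 26799 in female WT livers. All male values lay below all female values. KO minus WT was -0.35 in males (adjusted p = 0.469, limma) and -0.38 in females (adjusted p = 0.352, limma).

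Male minus female Ces1d was -0.72 ± 0.19 in WT livers (SE, 1.64-fold lower, adjusted p = 0.0473, limma) and -0.69 ± 0.19 in KO livers (1.61-fold, adjusted p = 0.0750, limma). The difference in KO livers passed in 4 of 16 alternatives (adjusted p 0.0293 to 0.369 over all of them), among them the omission of male KO 6 (-0.89, adjusted p = 0.0328). Ces1d was the only member called between the sexes in WT livers, where 2.11% of all genes tested were called lower in males. The WT call did not survive the omission of male WT 1, 2 or 3, or of female WT 1, 3, 4 or 5 (adjusted p 0.0611 to 0.160), and passed without female WT 2 (adjusted p = 0.0167), and over all alternatives the adjusted p was 0.00760 to 0.162. In WT livers 1 of 8 hepatocyte markers passed, Alb, the albumin gene, which was lower in males by 0.97 on the log2 scale (adjusted p = 0.0236, limma), while the other 7 differed by -0.94 to 0.14 and 2 of the 8, Ttr and Apoa1, lay above 0. The amylase-dominated pancreas list summed to 12398 to 13780 in male against 13898 to 19940 in female WT livers, and the summed intensity of 5 stellate cell markers was 6860 to 7409 in male against 8558 to 10264 in female livers. Of the 4 tested stellate genes 0 were called by limma (3 without adjustment), with 3 below 0 and 1 above. All 5 tested Kupffer cell markers (-0.77 to -0.02) and all 5 sinusoidal endothelium markers (-0.30 to -0.10) lay below 0. Of these 0 were called by limma (1 Kupffer cell marker without adjustment). The part of these markers in the result was not tested.

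Ces1f, a lipid hydrolase closely related to Ces1d, had nearly the same level everywhere. It averaged 9512 ± 1519 in male KO, 9540 ± 1641 in male WT (SD, n = 3 each), 10443 ± 1504 in female KO and 9240 ± 1103 in female WT livers (SD, n = 5 each). The groups overlapped in all 4 comparisons. Over the 4 comparisons the 95% intervals reached from -0.49 (male minus female in KO livers) to 0.48 (KO minus WT in females) on the log2 scale.

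The Ces3 genes were higher in male than in female KO livers. Ces3a had intensities of 11357, 11714 and 13461 in male KO livers, against 3525, 5450, 5299, 3865 and 5867 in female KO livers. The groups were far apart, and Ces3a was 1.36 ± 0.23 higher on the log2 scale in males (SE, 2.58-fold, adjusted p = 0.00277, limma). In WT livers it had 8740, 5934 and 7580 in males, against 4937, 4219, 4276, 7484 and 3495 in females. Here female WT 4 overlapped the males, and the difference of 0.63 ± 0.23 did not pass (adjusted p = 0.162, limma), while without female WT 4 it was 0.80 (adjusted p = 0.0406, limma, with 0.00966 to 0.388 over all alternatives).

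KO minus WT for Ces3a was 0.73 ± 0.26 in males (adjusted p = 0.196, limma), with every KO value above every WT value, and -0.003 ± 0.20 in females (95% interval -0.43 to 0.42). The order of the means was male KO (12178 ± 1126), male WT (7418 ± 1410), female WT (4882 ± 1542) and female KO livers (4801 ± 1038), of which the female groups overlapped.

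Ces3b, the neighbouring gene, ran with Ces3a by its main probe. This probe had intensities of 13312, 13996 and 14798 in male KO livers, against 6347, 9274, 6975, 4813 and 8149 in female KO livers. The groups did not overlap, and Ces3b was 1.01 ± 0.23 higher in males (SE, 2.02-fold, adjusted p = 0.0256, limma). In WT livers the values were 13425, 8963 and 12294 in males, against 9803, 6951, 6598, 9256 and 5251 in females. These overlapped, with a difference of 0.63 (adjusted p = 0.162, limma). KO minus WT was 0.30 in males and -0.09 in females (adjusted p = 0.619 and 0.924, limma). The other Ces3b probes had the opposite order in males. They averaged 1692 and 8023 in male KO against 1798 and 9120 in male WT livers.

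Of the 7 tested carboxylesterases, 2 (Ces3a and Ces3b) were called higher in male KO livers than in female KO livers, where 0.969% of all genes tested were called higher in males. The Ces3a call held in every alternative. The Ces3b call was lost without male KO 4, 5 or 6 or female KO 6, 8 or 9 (adjusted p 0.0523 to 0.112). The other Ces3b probes gave 0.79 and 0.82 (adjusted p = 0.0505 and 0.0440, limma), and over all alternatives the adjusted p was 0.00593 to 0.112. In KO livers the summed intensity of 5 sinusoidal endothelium markers was 7267 to 8495 in males against 8918 to 10190.0 in females, with 0 of 5 called by limma (0 without adjustment), and that of 4 erythroid genes 49783 to 67190 in males against 64268 to 83057 in females. Of these 4, Alas2 was 1.11 higher in males (adjusted p = 0.0378, limma), while the 3 globin genes differed by -0.48 to -0.24 and did not pass. Their part in the results was not tested.

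**Figure D3:**
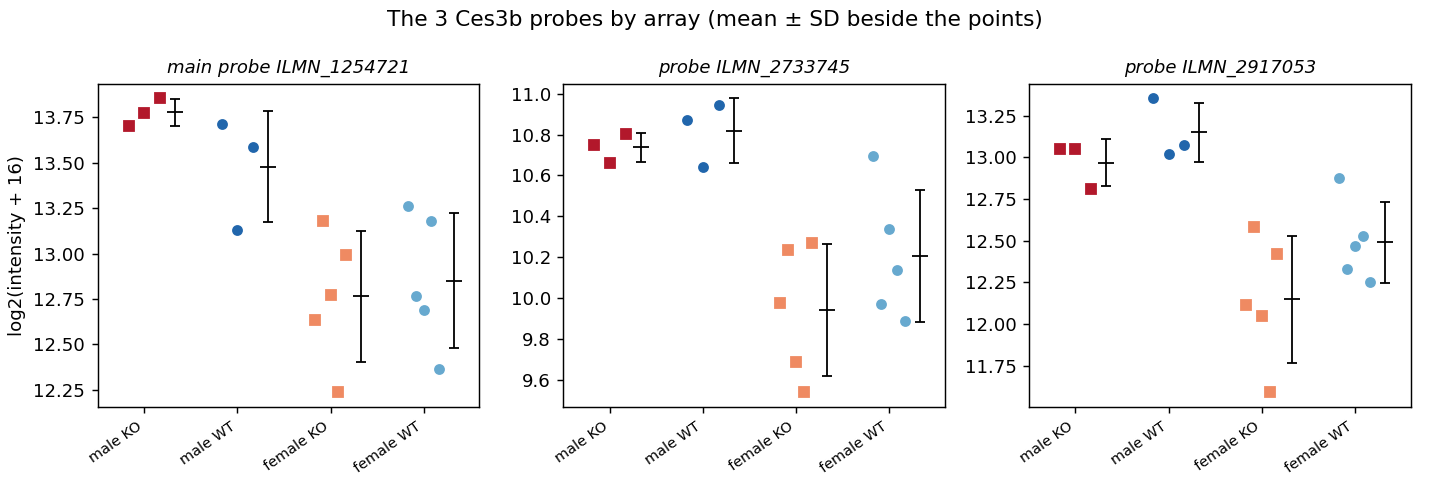
Level, log2(intensity + 16), of the 3 probes of Ces3b on every array of male KO, male WT, female KO and female WT livers, with group mean and SD as bars. The male KO points lie above the female KO points with each probe, while male KO and male WT points overlap with each.

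Ces2a, a hydrolase of drugs and acylglycerols, was near the limit of detection. Its intensity was 29.2, 27.4 and 11.96 in male KO livers, against -0.23, -4.65 and 6.10 in male WT livers. It was detected in 2 of 3 male KO, 0 of 3 male WT, 1 of 5 female KO and 0 of 5 female WT livers. Ces2a thus met the detection filter through KO arrays only. Its fitted KO minus WT difference of 1.09 ± 0.34 in males did not pass (adjusted p = 0.126, limma). Over all alternatives this difference ran from 0.48 to 2.23. Ces2e, which hydrolyses prodrugs, stayed between -9.23 and 16.7 on all arrays, and no comparison was made.

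None of the 7 genes was called for the interaction of genotype and sex by limma, which tests whether the KO effect differs between males and females, where 0.0606% of all genes tested were called. Without adjustment 1 of the 7 was under 0.05, as were 8.60% of all genes tested. This was Ces3a, with an interaction of 0.73 ± 0.33 (SE, adjusted p = 0.565, limma). For Ces1e the interaction was -0.77 (95% interval -1.61 to 0.06) and for Ces1g 0.69 (-0.38 to 1.76). The KO effects on Ces1e and Ces1g were therefore not shown to differ between the sexes.

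Some members varied together from array to array. Over the 16 arrays Pearson's r of the log2 levels was 0.93 for Ces3a with Ces3b and 0.76 for Ces1e with Ces1g. After removal of the group means r was 0.82 for the Ces3 pair, 0.71 for Ces1e with Ces1g and 0.86 for Ces1d with Ces1e. The points share arrays and normalization, and these values are descriptions.

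**Figure D4:**
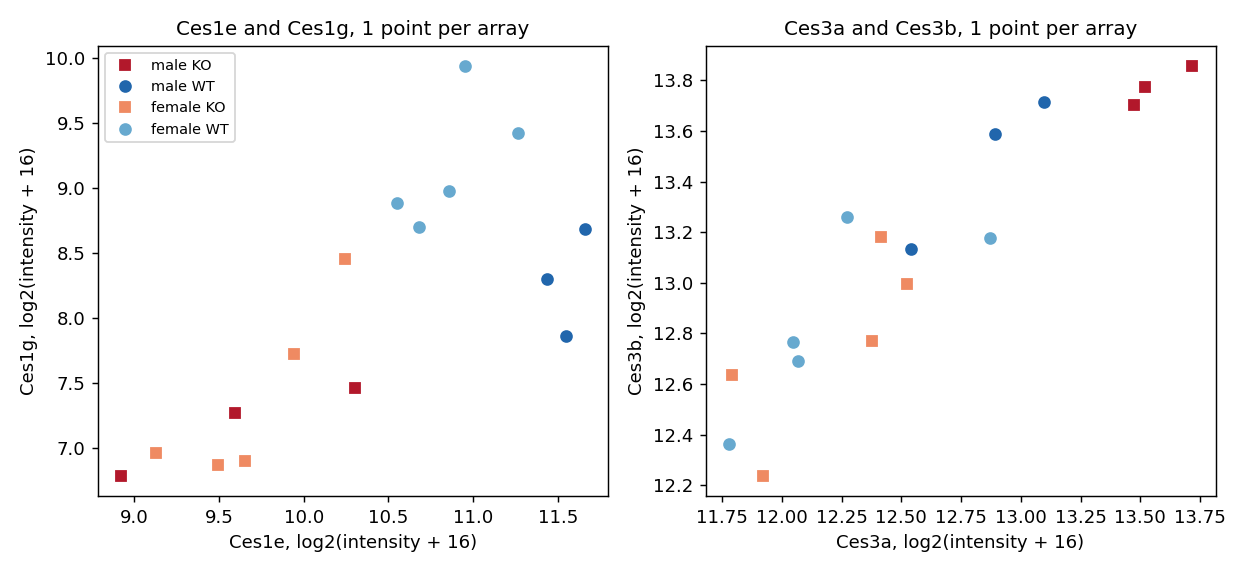
Levels of Ces1g against Ces1e and of Ces3b against Ces3a, log2(intensity + 16), with 1 point per array, squares for KO and circles for WT livers. KO arrays lie at the lower left for Ces1e and Ces1g, and male KO arrays at the upper right for Ces3a and Ces3b.

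Outside the family, the genes with the closest pattern over the 16 arrays were Adck5 (r = 0.91), Cryl1 (0.88) and Plekhb1 (0.88) for Ces1e, and Ammecr1l (0.89), Capn10 (0.87) and Pecr (0.86) for Ces1g. For Ces3a they were Mug1 (0.90), Cyp2f2 (0.90) and Ldhd (0.88), and for Ces3b Tmem248 (0.92), Cyp2f2 (0.92) and Cmtm6 (0.91).

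Of 11 other carboxylesterase genes, 9 had a probe and 4 were tested. By their brightest probes none of the 4 was called between KO and WT by limma, with 1 of 4 at an unadjusted p under 0.05 in each sex. The shares of all genes tested were 14.3% in males and 12.3% in females. Between the sexes 3 of 4 were called lower in male KO livers, where 1.39% of all genes tested were called lower, and 2 of 4 in male WT livers, where 2.11% were. Ces1c, a secreted plasma esterase, averaged 14303 ± 2437 in male KO (n = 3) against 22845 ± 2777 in female KO livers (n = 5), and 15636 ± 1983 in male WT (n = 3) against 26499 ± 3442 in female WT livers (SD, n = 5). It was lower in males by 0.68 in KO livers and by 0.76 in WT livers (adjusted p = 0.0303 and 0.0121, limma).

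Ces1b was lower in males by 1.05 in KO and by 1.03 in WT livers (adjusted p = 0.00558 and 0.00497, limma), with no overlap in either genotype. A dimmer Ces1b probe, not tested on its own, read 315 to 759.5 in male KO against 920 to 1028 in male WT livers, without overlap. In females this probe read 1524 to 2491.5 in KO against 1366 to 3158 in WT livers. Ces1a was lower in males by 1.12 in KO livers (adjusted p = 0.0303, limma). In WT livers it was lower in males by 0.76, again without overlap, but this difference did not pass (adjusted p = 0.128, limma). Ces2g averaged 567 ± 57.4 in male KO against 303 ± 94.1 in male WT livers (SD, n = 3 each), a difference of 0.91 that did not pass (adjusted p = 0.0868, limma).

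**Figure D5:**
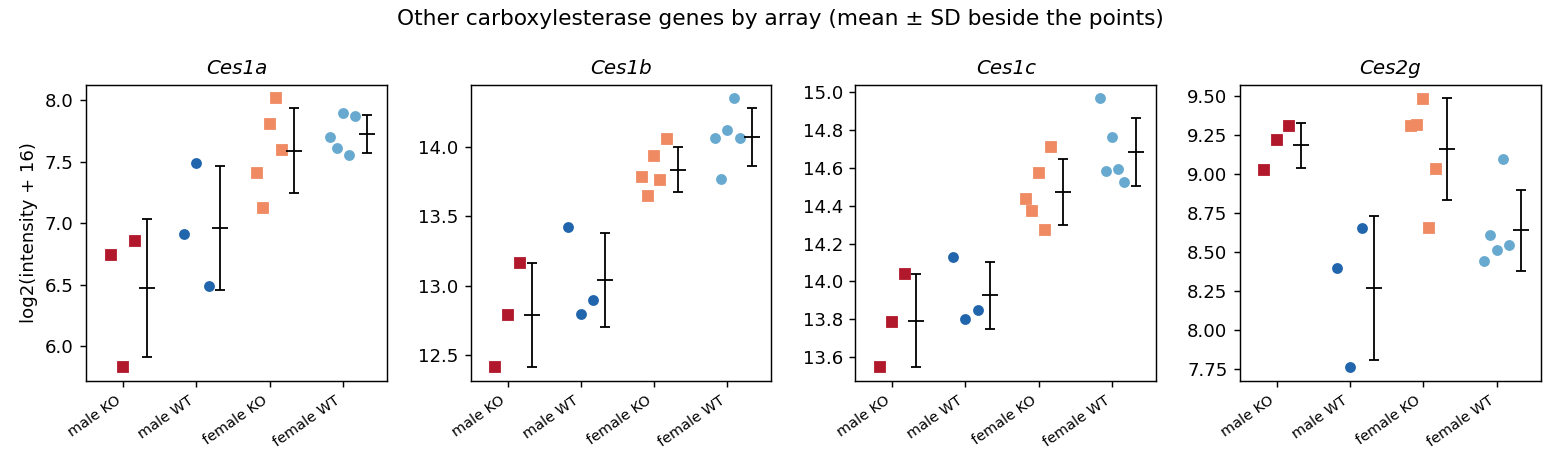
Level, log2(intensity + 16), of the 4 other tested carboxylesterase genes on every array of male KO, male WT, female KO and female WT livers, with group mean and SD as bars. For Ces1a, Ces1b and Ces1c every male point lies below every female point of the same genotype.

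The lists of genes that work beside the carboxylesterases held few called genes. Of 14 tested neutral lipid hydrolases and their regulators, 0 passed between KO and WT in either sex by limma (4 in males and 1 in females at an unadjusted p under 0.05, beside 14.3% and 12.3% of all genes tested), with medians of -0.18 and -0.07. Between the sexes Lipa, the lysosomal acid lipase, was lower in males by 0.79 in KO and by 0.80 in WT livers, Pnpla3, a lipid droplet acylhydrolase, was lower in males by 3.59 in WT livers, and Pnpla7, a lysophospholipase, was 0.78 higher in males in WT livers (adjusted p = 0.0134, 0.00979, 0.00609 and 0.00331, limma). Of 5 tested lipid droplet coat genes 1 passed, Plin5, which fell by 1.14 in female KO livers (adjusted p = 0.0224, limma). Of 12 genes of VLDL assembly 0 passed between KO and WT (1 in males and 2 in females at an unadjusted p under 0.05), and Tm6sf2, which aids VLDL lipidation, was lower in males by 1.01 in WT livers (adjusted p = 0.0102, limma).

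Of 12 other ester, amide and epoxide hydrolases 1 passed between KO and WT, Cmbl, which was 0.82 higher in female KO livers (adjusted p = 0.0164, limma). The β-glucuronidase gene Gusb, whose protein egasyn anchors, averaged 633 ± 108 in male KO against 440 ± 139 in male WT livers (SD, n = 3 each) and 544 ± 78.6 in female KO against 420 ± 56.2 in female WT livers (SD, n = 5 each). Its differences of 0.54 and 0.36 did not pass (adjusted p = 0.259 and 0.397, limma).

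Among 9 tested receptors that act with RXRα, 0 passed between KO and WT (2 in males and 1 in females at an unadjusted p under 0.05) by limma. Nr1i3, which encodes CAR, averaged 1491 ± 177 in male KO against 849 ± 190.0 in male WT livers (SD, n = 3 each), a difference of 0.82 that did not pass (adjusted p = 0.140, limma), and differed by 0.33 in females (adjusted p = 0.577, limma). Nr1i2, which encodes PXR, differed by -0.17 and -0.02, Ppara by 0.34 and 0.26 and Hnf4a by 0.47 and -0.03 in males and females (adjusted p 0.568 to 0.983, limma). Ppara was near the detection limit. It was detected in 2 of 3 male KO, 0 of 3 male WT, 5 of 5 female KO and 3 of 5 female WT livers. Rxrg, a receptor of the RXR family, was lower in males by 1.27 in WT livers (adjusted p = 0.0156, limma). Of 13 tested target genes of CAR and PXR, 2 fell in male KO livers (0.626% of all genes tested), and 2 fell (1.08%) and 1 rose (1.29%) in female KO livers, with medians of -0.15 and -0.48. Without adjustment 4 of the 13 in males and 7 in females were under 0.05 by limma, beside 14.3% and 12.3% of all genes tested. Cyp2c29, a drug-metabolizing oxidase, fell by 3.97 in males and by 3.59 in females, and Abcc3, an exporter of conjugates, fell by 1.57 and by 1.10 (adjusted p = 0.000197, 2.04e-05, 0.00186 and 0.00302, limma). Slco1a4, an uptake transporter, rose by 1.12 in female KO livers (adjusted p = 0.0255, limma). Between the sexes, Abcc3 was lower in males by 0.95 in KO livers (adjusted p = 0.0195, limma), and in WT livers Cyp3a11, a drug-metabolizing oxidase, was lower in males by 1.56 and Slco1a4 was 1.39 higher in males (adjusted p = 0.00359 and 0.0110, limma). Of the adipocyte and intestinal markers, whose tissues also use carboxylesterases, Plin1, Lep, Vil1, Fabp2, Cdh17 and Cdx2 were detected on no array. Adipoq was detected on 1 array, female WT 1, and Retn on 2. The adipocyte list summed to at most 28.7 in male KO, 23.0 in male WT, 20.5 in female KO and 178 in female WT livers. The intestinal gene Lgals4 was detected on all 16 arrays, with none of its differences called by limma (0 without adjustment), and its list summed to 24.5 to 74.0 in female KO and 31.7 to 190 in female WT livers. Their part in the results was not tested.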

How the data were processed

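The deposited values are probe intensities on a linear scale, which the authors' core facility background-subtracted and quantile normalized, as the values show. The tool named in the submitters' processing notes is lumi. A second deposited table of 32 non-normalized columns was not used, since its column names match no sample label. The array annotation gives 1 gene for 34885 of 45281 probes, several for 18 and none for 10378, and 18992 of 19057 genes matched a current symbol.

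Levels are log2(intensity + 16), with negative values taken as 0. A probe was detected above 3 times the root mean square of an array's values below 0, and a gene was tested where a probe was detected on at least 3 of 16 arrays, by its brightest probe. Groups were compared in limma 3.58.1 (R 4.3.3), with 1 mean per group, 12 residual degrees of freedom and Benjamini-Hochberg adjustment over 9906 genes at 0.05. The script was tested on simulated data. The labels do not say that replicates are separate animals, so p-values measure the spread between these samples. All members with a probe are named, and of other lists the called genes, Gusb, Rxra and 4 receptors. Members and lists were chosen with earlier results of these data known. Alternatives changed the offset, filter, probe choice, centring, array weights, prior, arrays in the fit and single arrays.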

Additional observations from a re-analysis of the deposited data

How the results depend on the processing

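Of 647 recomputed member differences 584 kept their direction and their side of the threshold. The 19 lost calls were those of Ces1d in WT livers and Ces3b in KO livers, both male minus female. The count of members called lower or higher between the sexes in WT livers was 1 and became 0 with an offset of 4, without the filter on dim genes, with only the compared groups in the fit, with arrays centred on the median of tested genes, and with a replicate block. Leaving out single arrays gave 0 to 1 there, and 1 to 2 between the sexes in KO livers (2 with all arrays). With array weights, where male WT 3 had a weight of 4.64 and female WT 4 of 0.295, 4 members were called for KO minus WT in males (Ces1e, Ces1g, Ces2a, Ces3a) and 4 for male minus female in WT livers (Ces1d, Ces1g, Ces3a, Ces3b). Ces2a met the detection filter through KO arrays only, so its call is not read as a result. Counts over all genes moved with array weights too, to 1611 from 149 for KO minus WT in males, 501 from 234 for male minus female in KO, 1405 from 368 in WT, and 39 from 6 for the interaction. With only the compared groups they were 137 (235 in the full fit) for KO minus WT in females and 171 (368) for male minus female in WT livers. Leaving out single arrays gave 74 to 147 for KO minus WT in males, 116 to 226 and 169 to 391 for male minus female in KO and WT livers, and 3 to 6 for the interaction. Without female WT 2 and 4, an alternative chosen after the data were seen, 156 genes were called for KO minus WT in females.

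The values that changed sign all missed the threshold. With array weights they were 0.16 (Ces1f, KO minus WT in males), 0.13 and 0.055 (Ces3a and Ces3b, KO minus WT in females), 0.0013 (Ces1e, male minus female in KO), -0.13 and 0.12 (Ces1f and Ces2a, male minus female in WT) and 0.025 (Ces1f, interaction). With centred arrays they were 0.0088 (Ces3a, KO minus WT in females) and -0.0090 (Ces1d, interaction). The other Ces3b probes gave -0.082 and -0.18 for KO minus WT in males. Without female WT 2 and 4 Ces3a was 0.17 for KO minus WT in females and Ces2a 0.0011 for male minus female in WT. Over single arrays left out, the ranges were -0.13 to 0.13 for Ces1f, KO minus WT in males, -0.11 to 0.16 and -0.21 to 0.044 for Ces3a and Ces3b, KO minus WT in females, -0.43 to 0.26 and -0.35 to 0.060 for Ces1e and Ces1g, male minus female in KO, -0.091 to 0.15 and -0.28 to 0.040 for Ces1f and Ces2a, male minus female in WT, and -0.18 to 0.18 for the Ces1d interaction. The cause was not tested.

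The WT groups share replicate numbers 1 to 3, but deviations of same-numbered arrays correlated at 0.098, 0.261 and 0.075, and male WT 1 correlated best with female WT 4 (0.566), so the numbers were not taken as pairs. With the replicate block 236 genes in place of 368 and 0 members were called for male minus female in WT livers, Ces1d was -0.57 (adjusted p = 0.162, limma) and Ces1f -0.0195. The 3 arrays of each male group limit the precision of every comparison that uses them.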
